A study of Mus musculus with 11 samples.

Results

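Immediate early genes are transcribed within minutes of a stimulus, before any new protein is made, and tissue digestion and cell sorting are among the stimuli known to induce them. Of the 38283 genes of the deposited count table, 10 are described here, chosen by name: the AP-1 subunit genes Fos, Fosb, Jun and Junb, the zinc finger factor genes Egr1 and Klf6, the nuclear receptor gene Nr4a1, the stress factor gene Atf3, Ier2, and the heat shock chaperone gene Hspa1a. Each of the 10 was found in the table, had counts in every library and passed the filter on low counts, as did 14332 genes in all.

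The cells came from the duodenal epithelium of 2 mouse strains that carry a fluorescent reporter of enteroendocrine cells, which make the gut's hormones. In Neurod1-cre-eYFP mice a Cre recombinase driven by Neurod1 marks cells with yellow fluorescent protein, so cells that expressed Neurod1 earlier can also carry it, and in GluVenus mice the Venus reporter follows the proglucagon gene. The 4 groups were NeuroD1 positive (3 libraries), NeuroD1 negative (3), Glu positive (3) and Glu negative (2). No treatment, age or sex is given, and the mice were on standard chow. Cells of all 4 groups were digested and sorted, and no undigested sample was analysed here, so the level before dissociation cannot be given, and every comparison below is between dissociated populations. Libraries carry the number in their label, and values are given in 1 order throughout: NeuroD1_positive_6360, NeuroD1_positive_6361 and NeuroD1_positive_6362, the NeuroD1 negative libraries of the same numbers, Glu_positive_5254, Glu_positive_5160 and Glu_positive_4665, and Glu_negative_5254 and Glu_negative_4665. Nothing in the labels ties a number to 1 animal, and the p-values then speak only of the spread among these libraries, which may be technical.

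The depth was 2279595 to 5722381 counts a library. In 5 of the 6 NeuroD1 libraries 27.5% to 33.9% of the counts fell on mt-Rnr1 and mt-Rnr2, ribosomal RNA genes of the mitochondrion, which are listed at 0 in NeuroD1_negative_6360 and in the 5 Glu libraries. The sum of 6 endocrine markers was 40620 to 59122 CPM (counts relative to library size, TMM-scaled) in NeuroD1 positive and 9987 to 28232 in Glu positive libraries, against 1950 to 2330 in NeuroD1 negative and 990 to 1180 in Glu negative ones. The negative cells are a mixture. Enterocyte markers, 6 in number, summed to 2304 to 6724 CPM in NeuroD1 negative and 1772 to 2090 in Glu negative libraries, and 5 B and plasma cell markers to 647 to 1944 and 975 to 3290. In bulk samples like these, fewer cells of a type and less RNA per cell cannot be told apart.

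As background, resting cells hold the factors that start these genes already bound or ready. Serum response factor with its ETS-family partners acts through CArG boxes, CREB acts through cAMP response elements when calcium or cAMP rises, and heat shock factor acts through heat shock elements. The AP-1, EGR and NR4A proteins then switch on later genes, while phosphatases and RNA-binding proteins made in the same wave end the response.

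The promoters show which of these elements the genes carry in the 250 bases before the start. Promoters of 8 of the 10 genes were matched in RefSeq (GRCm38.p6), with Egr1 and Ier2 not among them, and Hspa1b and Nr4a2 were added. The cAMP response element core TGACG, searched on both strands, was found in 5 of the 8 (Fos, Fosb, Junb, Atf3 and Nr4a1), against 17.8% of 32851 promoters. The full element TGACGTCA, which contains the core, was in 0 of the 8 and in 1.55% of all promoters. The AP-1 site, TGACTCA or TGAGTCA, was in 0 of the 8 and 4.46% of all, and the CArG box in 0 of the 8 and 1.47% of all, each searched on both strands. A pair of heat shock units, GAANNTTC or TTCNNGAA, was in 2 of the 8, Jun and Hspa1a, and in 12.8% of all. Of other elements, the GC box GGGCGG was in 7 of the 8 and in 32.7% of all promoters. The CCAAT box was in 4 of the 8 and 33.8% of all, and the TATA box TATAAA in 1 of the 8 and 12.4%. Promoters of like base content were not compared. A match describes letters only, and no match says only that these letters are not in this window.

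The last 120 bases before the start are printed for Fos, Fosb, Junb and Nr4a1, which hold the core there (Atf3, not printed, holds it too, 7 bases before the start), for Nr4a2, which passed in both strains, and for the near-identical pair Hspa1a and Hspa1b. Capitals mark TGACG (or CGTCA on the other strand) and TATAAA in the first 5, and the heat shock pair in the last 2. Positions follow in the same order: chr12:85473770-85473889 on the plus strand, chr7:19310046-19310165 minus, chr8:84978749-84978868 minus, chr15:101266726-101266845 plus, chr2:57124004-57124123 minus, chr17:34972157-34972276 minus and chr17:34959239-34959358 minus.
Fos: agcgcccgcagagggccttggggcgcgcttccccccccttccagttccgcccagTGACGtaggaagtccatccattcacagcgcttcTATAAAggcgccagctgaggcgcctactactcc
Fosb: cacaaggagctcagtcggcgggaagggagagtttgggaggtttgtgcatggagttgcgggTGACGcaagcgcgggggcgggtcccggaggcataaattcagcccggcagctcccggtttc
Junb: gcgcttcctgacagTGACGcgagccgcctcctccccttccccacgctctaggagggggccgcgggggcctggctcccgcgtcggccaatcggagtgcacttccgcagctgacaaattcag
Nr4a1: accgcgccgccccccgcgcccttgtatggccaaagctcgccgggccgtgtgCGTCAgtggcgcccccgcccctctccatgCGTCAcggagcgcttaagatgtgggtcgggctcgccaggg
Nr4a2: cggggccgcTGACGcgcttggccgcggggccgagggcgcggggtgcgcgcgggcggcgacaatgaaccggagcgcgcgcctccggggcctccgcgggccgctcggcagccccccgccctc
Hspa1a: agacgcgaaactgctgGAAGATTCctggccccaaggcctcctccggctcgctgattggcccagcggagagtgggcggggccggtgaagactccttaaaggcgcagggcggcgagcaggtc
Hspa1b: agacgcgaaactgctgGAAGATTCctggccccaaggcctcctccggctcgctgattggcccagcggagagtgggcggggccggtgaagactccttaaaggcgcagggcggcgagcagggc
In Fos the printed core began 66 bases before the start and the TATA box 33 bases before it, and another core lay at 129 bases. Nr4a1 had 4 cores in the 250 bases and Nr4a2 also 4. The RefSeq start used for Nr4a1 lies inside the span of that gene in GENCODE, 101254269 to 101274795. Its window is therefore not before the outermost start of the gene. The 2 printed Hspa1 windows were identical at 119 of 120 bases.

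Egr1 was higher in reporter-positive than in reporter-negative NeuroD1 cells, and was the 1 gene of the 10 to pass there. Egr1 (chromosome 18, 34859823 to 34864984, plus strand) encodes a zinc finger factor that binds GC-rich sites. In NeuroD1 positive libraries it stood at 1466, 1784 and 1493 CPM, and in NeuroD1 negative libraries at 760, 685 and 926 CPM. Every positive library was above every negative one. The log2 fold change was 1.00 ± 0.33 (SE; 95% interval 0.32 to 1.68; adjusted p = 0.0471, edgeR's quasi-likelihood test), a mean of 1581 ± 176 CPM against 790 ± 123 CPM (SD, n = 3 each). That call is near the threshold: it was lost in each of the 6 fits that left out 1 NeuroD1 library (log2 fold change 0.91 to 1.13, adjusted p 0.072 to 0.152) and in 5 of 8 other settings, DESeq2 among them, with a positive sign in all.

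In the Glu strain Egr1 was measured at 2441, 1828 and 1753 CPM in positive and at 1472 and 621 CPM in negative libraries. The groups did not overlap, but the negative pair was wide apart. The log2 fold change of 0.94 ± 0.37 (95% interval 0.16 to 1.72) did not pass, with adjusted p = 0.137 in edgeR. It was 0.45 without Glu_negative_4665 and 1.69 without Glu_negative_5254. The difference between the strains in this fold change was 0.06 ± 0.48 (95% interval -0.96 to 1.08).

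Averaged over both strains, a contrast added after the values were seen, Egr1 was higher in positive cells by 0.97 ± 0.25 (95% interval 0.45 to 1.49; adjusted p = 0.0085, edgeR). It was higher in the positive library in 5 of 5 pairs that share a strain and number. That count adds nothing further, since the Egr1 groups did not overlap in either strain. The call was lost in 1 of 11 fits with a library left out (0.73, adjusted p = 0.0658 in edgeR without Glu_negative_4665) and when libraries were scaled by their totals (0.66, adjusted p = 0.0779).

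Since a scaling factor cancels in a ratio of genes within a library, Egr1 was also set against Fos. The log2 ratio of Egr1 to Fos was 2.59, 2.78 and 2.64 in NeuroD1 positive and 1.77, 1.62 and 1.86 in NeuroD1 negative libraries. In the Glu strain it was 3.46, 2.24 and 2.57 in positive and 2.04 and 0.77 in negative libraries. Positive libraries were above negative ones within each strain. The difference was 0.92 in NeuroD1 and 1.36 in Glu, each with p = 0.1 in a two-sided exact permutation test, the smallest these group sizes allow. With labels exchanged within both strains the difference was 1.14 and the exact permutation p = 0.005, the smallest that 200 assignments can give. Against Jun in place of Fos, the difference was 1.15 with the same exact permutation p = 0.005. Over the 6 ratio comparisons made, the Benjamini-Hochberg adjusted value of each p of 0.005 was 0.015 and that of each p of 0.1 stayed at 0.1. These ratios were chosen after the values of Egr1 were seen. The p-values, adjusted or not, do not allow for the choice of Egr1 among the 10 genes, so they serve as a description. The ratios to Fos and to Jun share Egr1 and are not independent. They show unequal differences of the genes, not that Fos or Jun was unchanged.

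Egr1 also held the highest level per length among the 10 genes in each group. In CPM per kilobase of exon it was at 448 ± 84.1 in Glu positive, 353 ± 39.3 in NeuroD1 positive, 233 ± 134 in Glu negative (n = 2) and 176 ± 27.5 in NeuroD1 negative cells. That placed it at ranks 40, 59, 102 and 159 of 14151 genes with a length. Glu positive and NeuroD1 positive cells did not differ beyond their spread (log2 fold change of NeuroD1 against Glu -0.34 ± 0.32, adjusted p = 0.541 in edgeR), nor did the negative populations (-0.40 ± 0.36, adjusted p = 0.847). Next in NeuroD1 positive cells came Jun (117 ± 17.3 CPM per kilobase), Fos (105 ± 4.74), Fosb (54.5 ± 14.3), Ier2 (45.2 ± 9.78), Klf6 (43.9 ± 4.56), Atf3 (31.0 ± 7.53), Junb (19.8 ± 4.12), Nr4a1 (12.0 ± 1.81) and Hspa1a (8.72 ± 6.13). The spreads of Jun and Fos overlapped, as did those of Fosb, Ier2 and Klf6. Hspa1a ranked 3402 of the 14151 genes there and 879 in Glu negative cells, where it was at 29.0 ± 27.2 CPM per kilobase. Egr1 made up 52.8% ± 2.28 of the summed CPM of the 10 genes in NeuroD1 positive and 36.8% ± 2.09 in NeuroD1 negative cells. In Glu positive and Glu negative cells the share was 54.1% ± 3.93 and 33.3% ± 7.37.

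**Figure D1:**
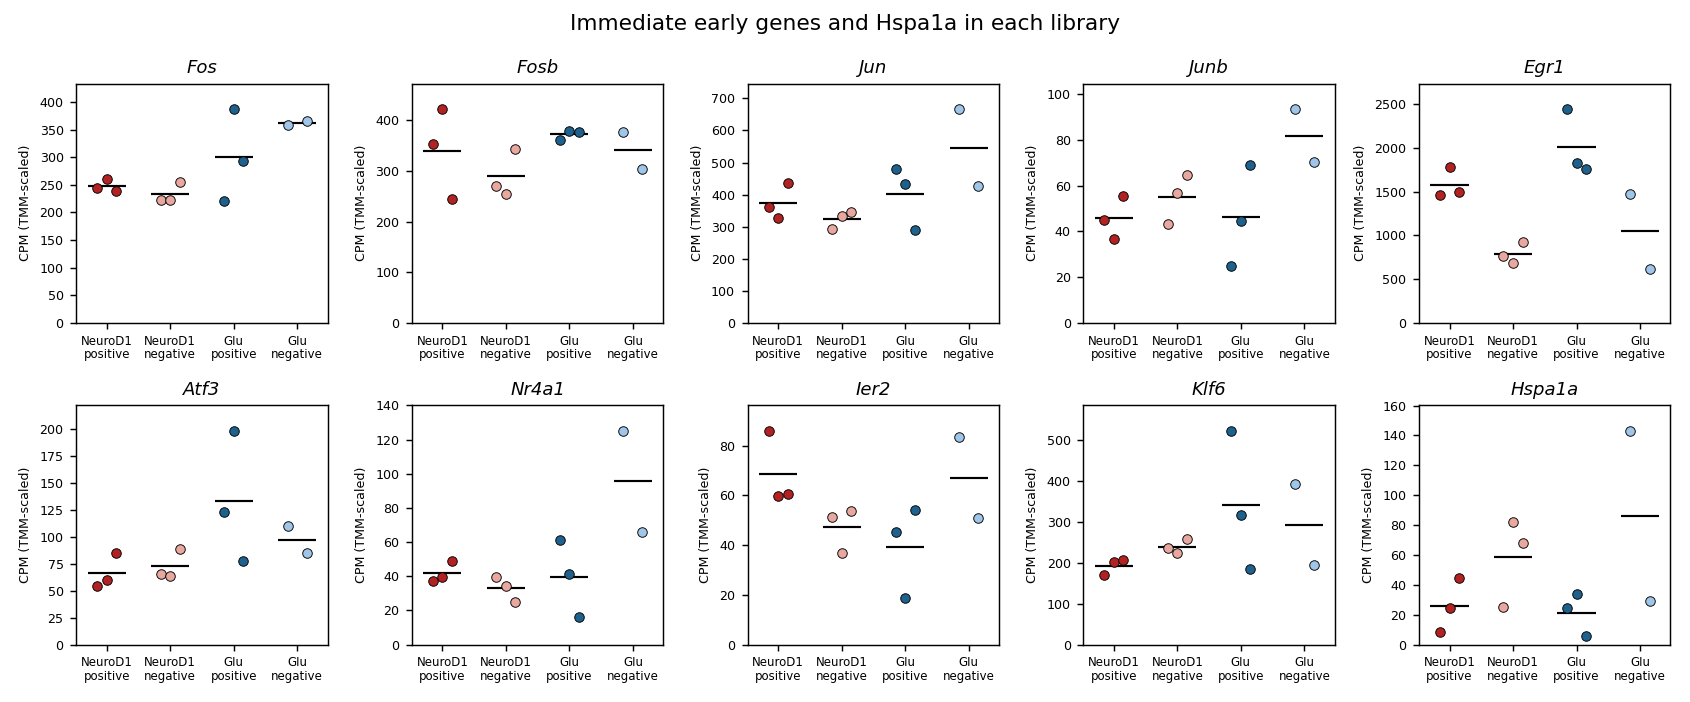
TMM-scaled CPM (y axis, linear from 0) of the 10 genes in each of the 11 libraries, by group on the x axis, with points for libraries and a line for the group mean (n = 3, 3, 3 and 2). Egr1 at 1466 to 1784 CPM in NeuroD1 positive libraries lies above its 685 to 926 CPM in the negative ones, while the Fos panel overlaps in that strain.

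The AP-1 subunit genes did not pass in any comparison. AP-1 is a dimer of a FOS-family and a JUN-family protein joined by a leucine zipper. Fos (chromosome 12, 85473890 to 85477273) was at 244, 261 and 239 CPM in NeuroD1 positive libraries and at 222, 223 and 255 in the negative ones. In Glu libraries it was at 221, 387 and 294 CPM in positive and 359 and 365 in negative ones. These ranges overlapped in both strains. Fos varied little, with a highest library 1.75 times the lowest and a within-group SD of 0.23 on the log2 scale. Only 8.5% of the 708 genes of similar level had a lower SD.

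Fosb (chromosome 7, 19302696 to 19310051), whose protein takes the place of FOS in the dimer, was at 354, 422 and 245 CPM in NeuroD1 positive and 271, 255 and 343 CPM in negative libraries. It was at 362, 380 and 377 CPM in Glu positive and 378 and 304 CPM in Glu negative libraries. Its log2 fold change between positive and negative cells was 0.23 ± 0.29 in NeuroD1 (95% interval -0.38 to 0.85) and 0.13 ± 0.33 in Glu (-0.56 to 0.82). The values overlapped in both strains. For Fos the same differences were 0.09 ± 0.29 (-0.52 to 0.69) and -0.27 ± 0.32 (-0.94 to 0.40), and intervals of this width do not show that the populations were alike.

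Jun (chromosome 4, 95049034 to 95052222) was at 360, 328 and 436 CPM in NeuroD1 positive and 292, 333 and 347 CPM in NeuroD1 negative libraries. In Glu positive libraries it was at 479, 433 and 291 CPM and in Glu negative ones at 666 and 426. Library Glu_negative_5254 was the highest of all 11. The fold changes were 0.21 ± 0.30 in NeuroD1 and -0.45 ± 0.33 in Glu. Junb (chromosome 8, 84974484 to 84978718), a weaker activator than JUN, was at 44.8, 36.6 and 55.5 CPM in NeuroD1 positive and 43.0, 56.7 and 64.6 CPM in negative libraries. Its Glu positive libraries gave 24.9, 44.4 and 69.1 CPM, all below the Glu negative values of 93.3 and 70.2 CPM. The Glu difference of -0.82 ± 0.45 (95% interval -1.75 to 0.11) did not pass (adjusted p = 0.279 in edgeR).

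Some reads of these 2 genes may belong to neighbours. Junb overlaps Prdx2 on the opposite strand, a peroxiredoxin gene with 2672 counts over all libraries against 2604 for Junb. Jun overlaps the antisense gene Junos, with 772 counts against 17942. Whether counting used strand is not given, so the Junb counts are uncertain. Of the 50-base words of their transcripts, Junb shares 5.76% with Prdx2 and Jun 5.83% with Junos. Summed, Fos, Fosb, Jun and Junb came to 1009 ± 36.0 CPM in NeuroD1 positive, 902 ± 95.2 in NeuroD1 negative, 1121 ± 111 in Glu positive and 1330 ± 234 in Glu negative cells.

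Hspa1a had a lower mean in the positive than in the negative libraries of each strain, with a wide spread. Hspa1a (chromosome 17, 34969190 to 34972156, minus strand) encodes a stress-inducible chaperone. It was at 8.45, 24.4 and 44.7 CPM in NeuroD1 positive libraries, and at 24.9, 82.3 and 68.1 CPM in the negative ones. Glu positive libraries had 24.6, 34.1 and 5.55 CPM, and Glu negative libraries had 143 and 28.9 CPM. The ranges overlapped in both strains. Within each of the 5 pairs that share a number the negative library was higher, by 0.60 to 2.49 on the log2 scale. The labels do not say that libraries of 1 number are pairs, so this order is a description.

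Neither strain alone passed for Hspa1a, at -1.16 ± 0.70 in NeuroD1 (adjusted p = 0.322 in edgeR) and -2.02 ± 0.76 in Glu (adjusted p = 0.119). The Glu difference did pass with a replicate block on the label number (-2.46, adjusted p = 0.0146 in edgeR), with no filter (-2.04, adjusted p = 0.00427) and with libraries scaled by their totals (-2.37, adjusted p = 0.0431). Over both strains the difference was -1.59 ± 0.52 (95% interval -2.67 to -0.51; adjusted p = 0.0342, edgeR). It rested on single libraries: without Glu_negative_5254 it was -0.81 (adjusted p = 0.39), and the call was lost in 6 of the 11 fits with a library left out. The Glu difference was -0.48 without that library.

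Hspa1b, the neighbouring copy, followed the same order. It was at 4.41, 9.16 and 8.90 CPM in NeuroD1 positive and 14.6, 33.1 and 16.2 CPM in NeuroD1 negative libraries, which did not overlap. Glu positive libraries had 8.50, 11.4 and 2.42 CPM and Glu negative ones 52.2 and 10.5. Over both strains Hspa1b was lower in positive cells by a log2 fold change of -1.79 ± 0.51 (adjusted p = 0.0171, edgeR), -1.01 without Glu_negative_5254 (adjusted p = 0.267) and -1.57 without NeuroD1_negative_6361 (adjusted p = 0.0528). The copies are not independent evidence. Their longest open reading frames were identical at 99.4% of aligned bases, and 58.8% of the 50-base words of Hspa1a transcripts occur in Hspa1b, so the split of reads between them is uncertain. Summed, the pair came to 33.3 ± 20.4 and 79.7 ± 38.2 CPM in NeuroD1 positive and negative cells and to 28.8 ± 19.1 and 117 ± 110 CPM in Glu positive and negative cells.

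**Figure D2:**
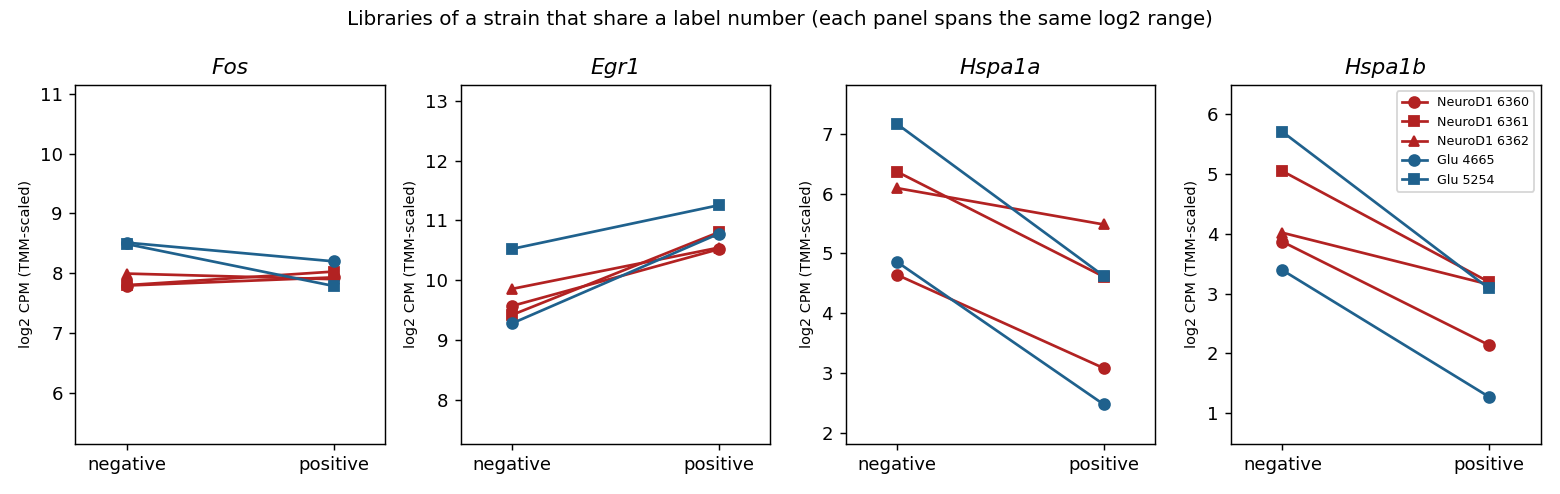
Log2 TMM-scaled CPM (y axis, the same span in each panel) of Fos, Egr1, Hspa1a and Hspa1b in negative and positive libraries (x axis), with lines joining the 5 pairs that share a strain and a label number. Egr1 is higher in the positive library in 5 of 5 pairs, which follows from its groups not overlapping in either strain. Hspa1a is lower in 5 of 5, while Fos is higher in 2 of 5.

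Markers of several other cell types were lower in positive libraries, less clearly in the Glu strain. The 5 T cell markers summed to 4.41 to 46.4 CPM in NeuroD1 positive and 171 to 260 CPM in NeuroD1 negative libraries, and to 157 to 599 CPM in Glu positive and 511 to 597 CPM in Glu negative ones. The 5 myeloid markers summed to 4.58 to 11.8, 40.6 to 104, and then 14.7 to 36.9 and 189 to 254 CPM, for the same 4 groups in turn. B and plasma cell markers summed to 25.3 to 51.7 CPM in NeuroD1 positive and 48.0 to 293 in Glu positive libraries, and enterocyte markers to 255 to 431 and 365 to 673, all below the negative values given above. Of the 5 T cell markers, Cd3g and Cd2 were at 0 in NeuroD1_positive_6360 and Cd2 in NeuroD1_positive_6361, and of the myeloid markers Cd68 was at 0 in both. Of the B and plasma cell markers, Ms4a1 and Mzb1 were at 0 in NeuroD1_positive_6360 and Cd79b in NeuroD1_positive_6361. Goblet cell markers summed to 344 to 549 CPM in NeuroD1 positive against 2196 to 3131 in NeuroD1 negative libraries, and to 870 to 2511 against 3073 to 3996 in the Glu strain. Stromal and endothelial markers (64.2 to 303 against 231 to 362 CPM) and tuft cell markers (5.98 to 59.9 in positive libraries and up to 77.7 in negative ones) overlapped between Glu positive and Glu negative libraries, as T cell markers did, and were lower in NeuroD1 positive (38.6 to 84.8 and 6.24 to 42.3) than in NeuroD1 negative ones (150 to 300 and 50.9 to 66.8). Cycling and crypt markers were lower in NeuroD1 positive libraries (308 to 470 against 586 to 852 CPM), but in the Glu strain they ran from 471 to 1105 in positive and from 528 to 559 in negative libraries, with a positive fold change for 5 of 5 markers, 0 of which passed in edgeR and 1 of which was under an unadjusted p of 0.05. Endocrine markers were higher in positive libraries. The part of these other cells in the values of Egr1 and Hspa1a was not tested.

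The other 4 genes did not pass between positive and negative cells. Nr4a1 (chromosome 15, 101254269 to 101274795), an orphan nuclear receptor, was at 37.1, 39.7 and 49.2 CPM in NeuroD1 positive and 39.7, 34.6 and 24.9 CPM in NeuroD1 negative libraries. Its Glu positive libraries had 61.0, 41.3 and 16.4 CPM, below the Glu negative values of 125 and 66.1 CPM. The Glu difference of -1.28 ± 0.50 (95% interval -2.32 to -0.23) had adjusted p = 0.133 in edgeR, and was -1.74 (adjusted p = 0.033) without Glu_positive_5254 and -0.77 without Glu_negative_5254. In NeuroD1 it was 0.34 ± 0.46, and the difference between the strains, 1.62 ± 0.68, did not pass (adjusted p = 0.40).

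Ier2 (chromosome 8, 84661331 to 84662852), a nuclear protein of the early response, was at 85.9, 59.9 and 60.4 CPM in NeuroD1 positive libraries, above the 51.3, 36.7 and 53.7 CPM of the negative ones. In the Glu strain it stood at 45.2, 18.6 and 54.3 CPM in positive and 83.6 and 50.8 CPM in negative libraries, which overlapped. The fold changes of 0.54 ± 0.42 in NeuroD1 and -0.76 ± 0.46 in Glu differed by 1.30 ± 0.63 (adjusted p = 0.463 in edgeR).

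Atf3 (chromosome 1, 191170296 to 191218039), a CREB-family factor induced by stress, was at 54.7, 60.3 and 85.2 CPM in NeuroD1 positive and 65.6, 63.8 and 88.2 CPM in NeuroD1 negative libraries. In Glu positive libraries it was at 123, 198 and 77.6 CPM and in Glu negative ones at 110 and 84.9 CPM. Positive and negative values overlapped in both strains. Klf6 (chromosome 13, 5861482 to 5870394), a Krüppel-like factor, was at 170, 201 and 207 CPM in NeuroD1 positive libraries, below the 237, 223 and 258 CPM of the negative ones. It was at 522, 318 and 186 CPM in Glu positive and 392 and 194 CPM in Glu negative libraries, so the Glu strain held both the highest and some of the low values. Their NeuroD1 differences were -0.12 ± 0.37 for Atf3 and -0.31 ± 0.36 for Klf6.

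**Figure D3:**
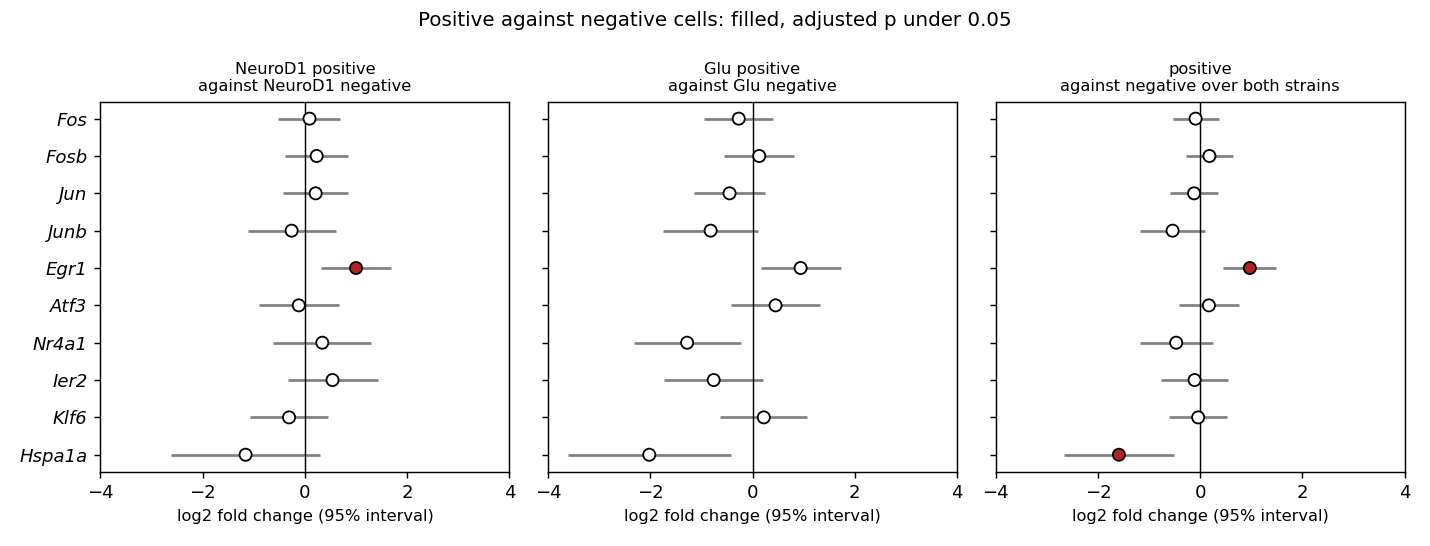
Log2 fold change (x axis) of the 10 genes (y axis) between positive and negative cells in the NeuroD1 strain, in the Glu strain and averaged over both, with points for the edgeR estimate and lines for the 95% interval. Filled points passed an adjusted p under 0.05: Egr1 in NeuroD1 (1.00), and Egr1 (0.97) and Hspa1a (-1.59) over both strains.

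Counted together, 1 of the 10 genes passed between NeuroD1 positive and negative cells, against 14.2% of all 14332 genes tested, and their median log2 fold change was 0.15 against 0.02 for all genes. Between Glu positive and negative cells 0 of 10 passed in edgeR and 0 in DESeq2, against 6.64% of all genes in edgeR. There 3 (Egr1, Nr4a1 and Hspa1a) were under an unadjusted p of 0.05, and the median was -0.36 against 0.12. Over both strains 2 of 10 passed, against 20.9% of all genes. Each of these shares is near or below the background.

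Counts of genes whose groups did not overlap were also near or below the background. Between NeuroD1 positive and negative libraries 3 of the 10 did not overlap (Egr1, Ier2 and Klf6), against 35.5% of all genes, and between Glu positive and negative libraries 3 (Egr1, Junb and Nr4a1), against 32.3%.

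The second kind of comparison set the positive populations of both strains side by side, and likewise the negative ones. The positive cells were marked by different reporters. Their endocrine markers summed to 40620 to 59122 CPM in NeuroD1 positive and 9987 to 28232 CPM in Glu positive libraries. Strain, separate sorts and the kinds of cells sorted therefore cannot be told apart in these comparisons. Between NeuroD1 positive and Glu positive cells 0 of 10 passed in edgeR and 0 in DESeq2, against 8.13% of all genes in edgeR. Atf3 (-0.99 ± 0.37, adjusted p = 0.109 in edgeR) and Klf6 (-0.83 ± 0.36, adjusted p = 0.167) were under an unadjusted p of 0.05, both with the higher mean in Glu cells. Without Glu_positive_4665, the Glu positive library with the lowest Atf3 and Klf6, they were -1.26 (adjusted p = 0.0258) and -1.12 (adjusted p = 0.0365). Only Ier2 did not overlap among the 10, against 23.6% of all genes.

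Between the negative populations 0 of 10 passed in edgeR and 0 in DESeq2, against 0.488% of all genes in edgeR. All 10 estimates were lower in NeuroD1 negative cells, with a median of -0.54 against -0.01 for all genes. The sizes ran from -0.23 ± 0.33 for Fosb to -1.52 ± 0.50 for Nr4a1 (adjusted p = 0.289 in edgeR). Nr4a1 and Jun (-0.75 ± 0.33, adjusted p = 0.49) were under an unadjusted p of 0.05, and 4 of the 10 (Fos, Jun, Junb and Nr4a1) did not overlap, against 31.8% of all genes. Glu_negative_5254 was the highest of the 11 libraries for Jun, Junb, Nr4a1 and Hspa1a. Without 1 Glu negative library, the sign turned for Egr1 (range -0.91 to 0.33), Klf6 (-0.72 to 0.28) and Hspa1a (-1.31 to 0.98). For the difference of the differences between strains, 0 of 10 passed in edgeR and 0 in DESeq2, with 1 (Nr4a1) under an unadjusted p of 0.05, against 0.112% of all genes called in edgeR.

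Library by library, the 10 genes did not move as one. Glu_negative_5254 had the highest mean of centred log2 values over the 10, at 0.78, and each of the 10 was above its own mean there. The other 10 libraries lay between -0.34 and 0.16. The highest library exceeded the lowest by 1.72 times for Fosb and by 25.8 times for Hspa1a. The within-group SD of Hspa1a, 1.21 on the log2 scale, was higher than in 97.1% of 4106 genes of similar level, whose median was 0.55. As a description over 11 libraries that share strain and sort, pairs of the 10 genes had r from -0.62 for Ier2 and Atf3 and -0.44 for Egr1 and Junb to 0.71 for Klf6 and Atf3 and 0.87 for Nr4a1 and Jun.

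Outside the 10, the genes whose log2(CPM + 1) profile over the 11 libraries was most like the mean of the 10 were Mrpl10 (r = 0.83), Tgfb1 (0.81), Klf13 (0.80), Itgav (0.78) and Btg1 (0.77), out of 6784 genes with a mean of at least 16 CPM. These are the closest of many, so a high r is no finding.

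Among early response genes outside the 10, Nr4a2 passed in each strain, with higher values in the positive libraries. Of 19 other early transcription factor genes tested, 2 rose and 0 fell between NeuroD1 negative and positive cells, against 14.2% of all genes passing. In the Glu strain 1 of the 19 passed, against 6.64% of all genes, and neither share is above the background. The list median was -0.14 against 0.02 for all genes tested in NeuroD1, and -0.19 against 0.12 in the Glu strain. Nr4a2, a nuclear receptor of the same family as Nr4a1, was at 124, 161 and 184 CPM in NeuroD1 positive and 23.3, 19.6 and 20.5 CPM in negative libraries. It was at 316, 175 and 243 CPM in Glu positive and 67.7 and 40.1 CPM in Glu negative libraries. Positive and negative values were far apart in both strains. Nr4a2 rose by 2.88 ± 0.36 in NeuroD1 (adjusted p = 3.28e-05, edgeR) and 2.19 ± 0.40 in Glu (adjusted p = 0.00315), where it was the 1 of 19 to pass. Without Glu_negative_4665 the Glu value was 1.86 (adjusted p = 0.11).

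Egr2, a relative of Egr1, was at 57.3, 53.4 and 44.5 CPM in NeuroD1 positive and 25.6, 4.02 and 12.2 CPM in negative libraries. It rose by 1.85 ± 0.59 there (adjusted p = 0.0423, edgeR). Egr2 did not pass with library totals (1.4, adjusted p = 0.17 in edgeR) or upper quartile scaling (1.75, adjusted p = 0.0581). The call was lost in 5 of the 6 fits that left out a library, all but the one without NeuroD1_negative_6360, with values of 1.44 to 2.65 over the 6 fits. In the Glu strain it was at 16.4, 55.5 and 47.0 CPM in positive and 58.8 and 26.2 CPM in negative libraries, which overlapped.

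The list of calcium and cAMP response genes, known from neurons, held 3 genes that rose. Of its 10 genes, 3 rose and 0 fell in NeuroD1 positive cells, against 14.2% of all genes passing. The list median was 1.49 against 0.02 for all genes. Rgs2, a brake on G protein signalling, was at 380, 426 and 354 CPM in NeuroD1 positive and 40.0, 41.7 and 51.9 CPM in negative libraries, a rise of 3.12 ± 0.39 (adjusted p = 3.35e-05, edgeR). Rasd1, a Ras-like GTPase, was at 36.0, 35.5 and 21.4 CPM against 2.64, 8.03 and 3.93 CPM, a rise of 2.70 ± 0.64 (adjusted p = 0.00723). Arc, a synaptic activity gene, was at 55.1, 55.7 and 46.8 CPM against 8.28, 9.54 and 14.0 CPM, a rise of 2.31 ± 0.53 (adjusted p = 0.00593). None of these 3, named because they passed, overlapped between the NeuroD1 groups, as for 35.5% of all genes. Rasd1 was at 2.37 (adjusted p = 0.0534) without NeuroD1_negative_6360.

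In the Glu strain 0 of the same 10 passed in edgeR, against 6.64% of all genes, and 1 passed in DESeq2. There 3 were under an unadjusted p of 0.05 in edgeR, and the median was 0.89 against 0.12. Rgs2 was at 106, 175 and 346 CPM in positive and 98.6 and 96.8 CPM in negative libraries (1.10 ± 0.42, adjusted p = 0.124), and at 1.42 (adjusted p = 0.0146) without Glu_positive_5254. Arc was at 36.1, 32.7 and 14.1 CPM against 11.1 and 4.34 CPM (1.85 ± 0.60, adjusted p = 0.0736), and at 2.17 (adjusted p = 0.0288) without Glu_positive_4665. Rasd1 was at 5.76, 15.8 and 15.7 CPM against 5.53 and 4.34 CPM (1.33 ± 0.69). All 3 were higher in each positive library than in either negative one, as were 15.8% of all genes.

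**Figure D4:**
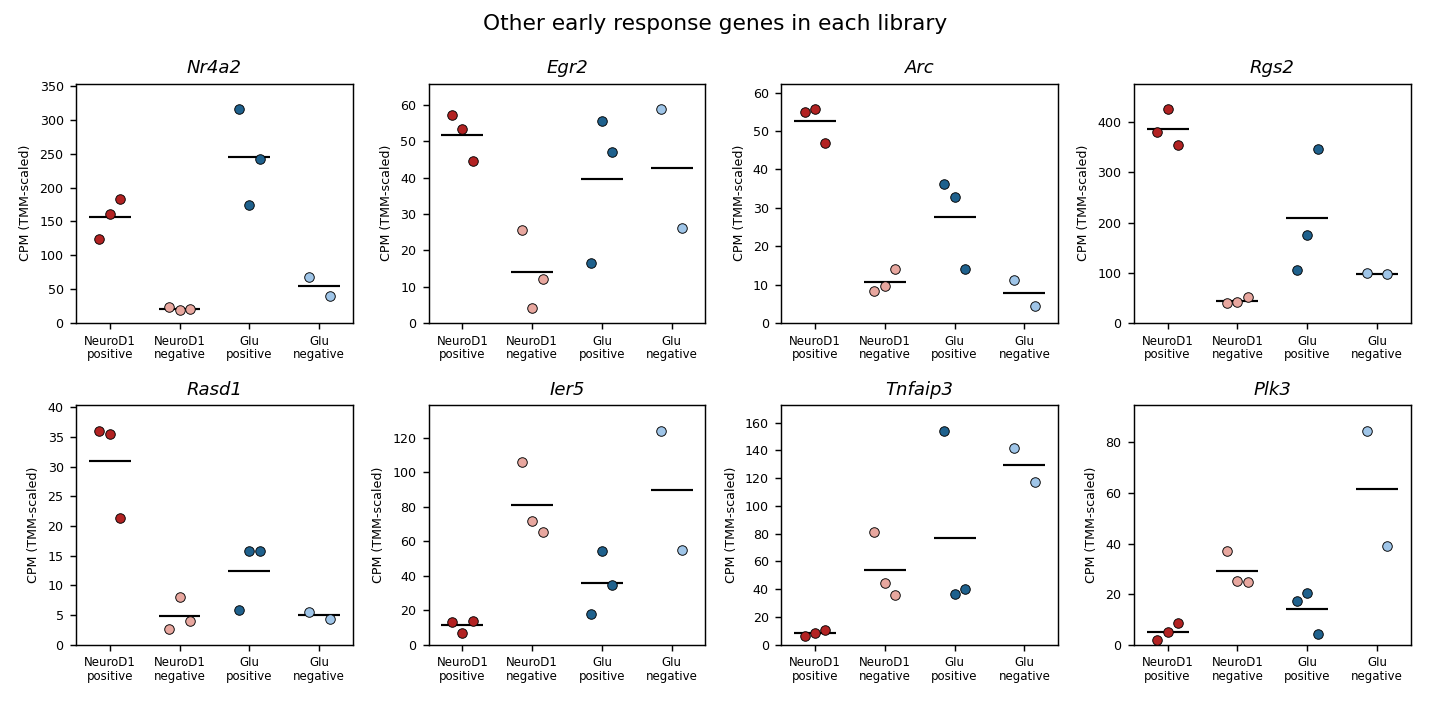
TMM-scaled CPM (y axis, linear from 0) of 8 early response genes outside the 10 in each library, by group on the x axis, with points for libraries and lines for group means (n = 3, 3, 3 and 2). Nr4a2, Arc, Rgs2 and Rasd1 are higher in each NeuroD1 positive library than in any NeuroD1 negative one, and Ier5, Tnfaip3 and Plk3 are lower.

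A list of feedback genes of the early response, with other early response genes among them, went both ways. Of 33 tested, 2 rose and 4 fell in NeuroD1 positive cells, against 14.2% of all genes passing. The median was -0.18 against 0.02 for all genes. These 6 calls came to 2 without NeuroD1_negative_6360 or NeuroD1_positive_6361, to 3 without NeuroD1_positive_6360 or NeuroD1_positive_6362, and to 11 with the compared groups fitted alone. In the main fit none of the Dusp phosphatase, Spry or Spred genes of the list passed in NeuroD1. Among its RNA-binding Zfp36 genes, Zfp36l1, outside the rule for named genes, passed (-1.60 ± 0.43, adjusted p = 0.0167 in edgeR). Ier5, an early gene that also takes part in heat shock factor control, was at 12.9, 6.49 and 14.0 CPM in positive and 106, 71.8 and 65.5 CPM in negative libraries, and fell by 2.86 ± 0.50 on the log2 scale. Tnfaip3, which restrains NF-kappaB, was at 5.88, 8.39 and 10.6 CPM against 80.9, 44.7 and 35.8 CPM (-2.69 ± 0.55). Plk3, a stress kinase, was at 1.84, 4.96 and 8.48 CPM against 37.0, 25.1 and 24.9 CPM (-2.48 ± 0.65). Gadd45g, a growth arrest gene, rose by 2.30 ± 0.72. It did not pass with library totals (2.02, adjusted p = 0.0881 in edgeR) or upper quartile scaling (2.19, adjusted p = 0.052). With 1 library left out, Gadd45g did not pass in any of 6 fits (2.08 to 2.66), and Plk3 did not pass in 3 of 6, without NeuroD1_negative_6360 (-2.26), NeuroD1_positive_6360 (-2.09) or NeuroD1_positive_6361 (-2.45). Tnfaip3 is also expressed in lymphocytes, whose markers were lower in the same libraries as given above, and the part of those cells was not tested. In the Glu strain 0 of 33 passed in edgeR, against 6.64% of all genes, and 2 passed in DESeq2. There 8 were under an unadjusted p of 0.05 in edgeR, and the median was -0.34 against 0.12. The Glu fold changes were -1.33 ± 0.51 for Ier5, -0.76 ± 0.55 for Tnfaip3, -2.16 ± 0.67 for Plk3 and 0.65 ± 0.77 for Gadd45g. Glu_positive_5254 had the highest Tnfaip3 of the 11 libraries, at 154 CPM. Its T cell markers summed to 599 CPM, against 160 in Glu_positive_5160 and 157 in Glu_positive_4665. In the same order, its goblet cell markers summed to 2511 CPM against 1367 and 870, and its endocrine markers to 14396 against 9987 and 28232. The part of those cells in its Tnfaip3 was not tested.

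Of 18 heat shock genes, 1 rose and 0 fell in each strain, against 14.2% of all genes passing in NeuroD1 and 6.64% in Glu. Neither share is above the background. The medians were -0.14 in NeuroD1 and 0.22 in Glu. Hspa4l, a nucleotide exchange factor for such chaperones, was at 297, 240 and 254 CPM in NeuroD1 positive and 60.1, 53.2 and 43.7 CPM in negative libraries (2.33 ± 0.33). It was at 184, 123 and 101 CPM in Glu positive and 49.5 and 44.0 CPM in Glu negative libraries (1.54 ± 0.37, adjusted p = 0.0194 in edgeR). That Glu call was lost with library totals (1.16, adjusted p = 0.113) and with the compared groups fitted alone (1.5, adjusted p = 0.167 in edgeR). The Glu value did not pass without either Glu negative library (1.45 without Glu_negative_4665, 1.62 without Glu_negative_5254).

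Among 19 genes upstream of the early response, receptors and kinases that carry the signal and the factors they act on, 2 rose and 1 fell in NeuroD1 positive cells and 1 rose in Glu positive cells, with medians of 0.25 and 0.43. Egfr, the epidermal growth factor receptor, was at 158, 147 and 126 CPM in NeuroD1 positive and 32.6, 23.6 and 31.0 CPM in negative libraries (2.30 ± 0.38). It was at 253, 114 and 158 CPM in Glu positive and 45.6 and 24.0 CPM in Glu negative libraries (2.33 ± 0.44, adjusted p = 0.00388 in edgeR), and at 1.95 (adjusted p = 0.12) without Glu_negative_4665. In NeuroD1 cells Mapk14, the p38 alpha kinase, rose by 1.42 ± 0.42, and Elk3, an ETS-family partner of serum response factor, fell by 2.01 ± 0.63 on the log2 scale. With 1 library left out, Mapk14 did not pass in any of 6 fits (1.35 to 1.46), and Elk3 passed only in the fit without NeuroD1_positive_6361. Mapk14 also did not pass with library totals (1.1, adjusted p = 0.14 in edgeR) or upper quartile scaling (1.3, adjusted p = 0.0516). In the Glu strain neither passed in edgeR, with -0.29 ± 0.45 for Mapk14, the opposite sign, and -0.01 ± 0.65 for Elk3. Each list is read against the 14.2% and 6.64% of all genes that passed in these comparisons.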

How the data were processed

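Duodenal epithelium of Neurod1-cre-eYFP and GluVenus mice was digested and sorted by flow cytometry, and amplified libraries were made from 2 ng of RNA, per the labels' protocols. CASAVA, TopHat2 2.1.0 and Cufflinks 2.2.1 are the tools, and GRCm38 the build, in the submitters' processing notes. Neither the annotation release nor the strand setting is given in the sources used here. Values in the deposited table were estimated counts (expected counts, not whole in 848 of 38283 genes), which were rounded to whole numbers.

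Counts were fitted in edgeR 4.0.16 (R 4.3.3; filterByExpr, 14332 genes kept; TMM scaling; quasi-likelihood test on 4 group means over 11 libraries). P-values were adjusted over all tested genes by Benjamini-Hochberg, with calls at an adjusted p under 0.05. Each SE is the absolute log2 fold change over the square root of its F statistic. Alternatives were RLE, upper quartile and library-total scaling, no filter, DESeq2 1.42.0, the compared groups alone, leaving out mt-Rnr1 and mt-Rnr2, a block on the label number, and each library left out. The fit was tested on simulated counts.

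The 10 genes, the gene lists, the comparisons and the alternatives were chosen with earlier results of these data known. The mean of the positive-against-negative differences over both strains, and the Egr1-to-Fos and Egr1-to-Jun ratios, were added after the values were seen. Besides the 10 genes, the text names Hspa1b, up to 4 genes of each list that passed in a positive-against-negative comparison, by size of change, and the 5 genes whose profile was most like the mean of the 10. Coordinates come from GENCODE vM21 on GRCm38, and promoter sequences from RefSeq. Libraries that shared a number did not deviate together across all genes, so the main fit did not use the numbers as pairs. Pairs by number are shown as a description only, and the block on the number is an alternative.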

Additional observations from a re-analysis of the deposited data

How the results depend on the processing

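Over 1185 values of single genes under the alternatives (82 pairs of a gene and a comparison), 54 had the other sign from the reported value. Of those, 0 were for genes past the threshold. Genes that passed have estimates large for their spread, and the alternatives reuse the same counts, so that 0 says little. Counts of called genes among the 10 moved as follows. Between NeuroD1 positive and negative cells the count was 0 in place of 1 with DESeq2, library totals, RLE scaling, upper quartile scaling and without mt-Rnr1 and mt-Rnr2, and 0 to 0 with a library left out. Between Glu positive and negative cells it was 1 in place of 0 with library totals, with no filter and with the replicate block, each time Hspa1a (-2.37, -2.04 and -2.46), and 0 to 1 with a library left out. Between the positive populations it was 1 with library totals (Atf3, -1.33) and 0 to 2 with a library left out. Over both strains it was 1 in place of 2 with library totals and 1 to 2 with a library left out. Library totals moved the median of all genes from 0.02 to -0.28 in NeuroD1, 0.12 to -0.19 in Glu, -0.14 to -0.51 between the positives, -0.01 to -0.39 between the negatives and 0.08 to -0.24 over both strains. With the compared groups fitted alone, the NeuroD1 count was 4 in place of 2 for the other early transcription factor genes, 6 in place of 3 for the upstream genes and 2 in place of 1 for the heat shock genes. With 1 NeuroD1 library left out the first was 1 in 5 fits and the second 1 in 5 fits. Why the other alternatives moved a count was not tested.

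With the replicate block on the label number, 1 of the 10 genes passed in NeuroD1, 2 over both strains and 0 for the difference between strains. Same-numbered libraries correlated at 0.01 to 0.08 in their deviations across 6907 genes, under the 0.1 taken to show pairing. Over the 10 genes alone the values were 0.14 to 0.84 in NeuroD1 and 0.61 and 0.64 in Glu. Libraries of different numbers ran from -0.89 to 0.86 in NeuroD1 and from -0.64 to 0.28 in Glu. The deviations of the 2 Glu negative libraries mirror each other. Each Glu positive library therefore has the same value with both, with opposite signs, and the Glu values are not separate agreements. Any pairing is a hint from the data, not from the design. A block could not be fitted between strains, as each number belongs to 1 strain.

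The values that turned sign had not passed. With library totals these were Atf3 (-0.14) and Fosb (-0.12) over both strains, Fos (-0.20), Fosb (-0.06), Jun (-0.06) and Nr4a1 (-0.0041) in NeuroD1, Fosb (-0.18) and Klf6 (-0.17) in Glu, and Hspa1a (-0.01) and Nr4a1 (-0.16) between the positives. With upper quartile scaling they were Fos in NeuroD1 (-0.03), Fosb (-0.09) and Klf6 (-0.05) in Glu, and Jun (0.03) and Junb (0.06) between the positives. Junb was at 0.01 there without mt-Rnr1 and mt-Rnr2, and Fos at -0.0039 in NeuroD1 with the compared groups alone. With the replicate block they were Atf3 (-0.06) and Ier2 (0.07) over both strains and Egr1 for the difference between strains (-0.11).

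With each library left out in turn, the ranges that crossed 0 were, over both strains, Atf3 -0.02 to 0.31, Fos -0.17 to 0.00031, Ier2 -0.26 to 0.11, Jun -0.26 to 0.07 and Klf6 -0.26 to 0.25. In NeuroD1 the range was -0.33 to 0.05 for Atf3, and in Glu -0.01 to 0.30 for Fosb and -0.21 to 0.79 for Klf6. Between the positives it was -0.31 to 0.06 for Fosb, -0.36 to 0.83 for Hspa1a, -0.28 to 0.05 for Jun, -0.32 to 0.40 for Junb and -0.28 to 0.56 for Nr4a1. Between the negatives it was -0.91 to 0.33 for Egr1, -1.31 to 0.98 for Hspa1a and -0.72 to 0.28 for Klf6. For the difference between strains it was -0.67 to 0.57 for Egr1, -0.08 to 0.29 for Fosb and -0.66 to 1.65 for Hspa1a. A fit without 1 Glu negative library assumes that the lone sample varies like the other groups.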

Other observations

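Early genes outside the rule for named genes also passed in single comparisons and were chosen after their values were seen. Between the positive populations Nr4a3, the third NR4A receptor gene, was lower in NeuroD1 cells by a log2 fold change of -2.31 ± 0.58 (adjusted p = 0.0199, edgeR), and Myc, a growth factor-induced factor, by -1.86 ± 0.44 (adjusted p = 0.0135). In the same comparison 5 of 5 T cell and 5 of 5 goblet cell markers were called lower in NeuroD1 positive cells, as was the crypt stem cell gene Lgr5 (-3.24, adjusted p = 0.0183 in edgeR). Nr4a3 and Myc were the 2 of 19 other early transcription factor genes to pass there, against 8.13% of all genes. Of 33 feedback genes 1 was higher and 5 were lower there, and of 19 upstream genes 1 and 1. Of 10 calcium and cAMP genes 1 was higher and 0 lower, and 0 of 18 heat shock genes passed. Those lower included Tnfaip3 (-3.19 ± 0.56), Elk3 (-3.13 ± 0.65) and Ier5 (-1.67 ± 0.49). The part of T cells, goblet cells and crypt cells in the values of these early genes was not tested. Nr4a3 was also lower in positive than in negative cells over both strains (-1.38 ± 0.41, adjusted p = 0.0226), the opposite sign to Nr4a2 (2.53 ± 0.28), while Nr4a1 did not pass (-0.47 ± 0.34, adjusted p = 0.373).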
